A study of Mus musculus with 30 samples.

Results

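The 10 genes described here encode transcription factors known from studies of T cell exhaustion: Tox, Tox2, Nr4a1, Nr4a2, Nr4a3, Prdm1, Batf, Irf4, Maf and Id2. They were taken by name from the 55401 genes counted in the series, but the list was chosen with earlier results of these data known. All 10 were found and passed the filter on low counts in each comparison of C269 with CTRL. The RNA-seq libraries come from mouse tumours of 4T1, a mammary carcinoma line that here carried GFP, in 6 groups of 5 libraries. Mice received C269, an antibody against extracellular NAMPT, at 2.5 mg/kg, or a control IgG1 (CTRL). Either was given 2 times a week for 1 month. From the tumours, GFP-carrying 4T1 cells were sorted, and CD8+ and CD4+ T cells were taken with magnetic beads, so the groups are 4T1 C269, 4T1 CTRL, CD8 C269, CD8 CTRL, CD4 C269 and CD4 CTRL. All animals are labelled wild-type, and the sources used here give no strain, sex or age. The labels do not tie the 5 samples of a group to different mice. The spread behind each p-value may therefore be technical.

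Exhaustion is the state that T cells enter under lasting antigen, with inhibitory receptors such as PD-1 at the surface and reduced effector function. In CD8+ T cells, calcium signals activate NFAT, which drives the nuclear receptors of the NR4A family and the HMG-box factors TOX and TOX2, and these sustain the exhausted state. BATF and IRF4 are joint partners downstream of the T cell receptor, and PRDM1 (Blimp-1) and MAF promote inhibitory receptors and interleukin-10. ID2 blocks E proteins and favours effector over memory fates, while TCF-1, the product of Tcf7, maintains the stem-like cells that feed the exhausted pool. Several of the same factors also serve in regulatory and follicular helper T cells, and in B cells, plasma cells and macrophages.

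Each library had between 2005579 and 5176494 gene counts, with 12208 to 18972 genes detected. CD8 C269 was the shallowest group. The gene positions in the deposited tables are those of GRCm38 for 99.6% of gene starts, although the submitters' processing notes name mm9. The T cell populations carried their labelled markers. Cd8a, a chain of the CD8 co-receptor, was at 335 to 685 CPM (counts scaled to the same total of gene counts in every library) in CD8 C269 and 357 to 619 CPM in CD8 CTRL, and no CD4 library exceeded 50.6 CPM. Cd4 was at 116 to 184 CPM in CD4 C269 and 71.3 to 192 CPM in CD4 CTRL, and at most 27.9 CPM in a CD8 library. The 4T1 libraries held T cell transcripts too: the sum of 10 T cell markers was 56.2 to 613 CPM in 4T1 C269 and 63.7 to 439 CPM in 4T1 CTRL, against 3808 to 4799 CPM in CD8 C269. Libraries 9 and 10, labelled 4T1 C269, stood apart: Muc2, an intestinal mucin, was at 4408 and 5348 CPM there and at most 10.6 CPM elsewhere. Differences in 4T1 are given with and without them. Library 14, labelled CD4 CTRL, had the lowest T cell marker sum of its population (1371 CPM, against 2214 CPM in the next) and the highest macrophage marker sum (2118 CPM). As the RNA is from bulk populations, fewer cells of a type and less RNA per cell cannot be told apart.

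Promoter sequences of 8 of the 10 genes were found in RefSeq (GRCm38.p6), each from 250 bases before to 50 bases after an annotated start. Those of the 3 NR4A genes are shown because these are the immediate early genes among the 10, and 1 of 5 listed Tox2 windows because Tox2 carried the largest differences between C269 and CTRL. Capitals mark TGACG on either strand (CGTCA on the strand printed), the short form of the cyclic AMP response element TGACGTCA, through which CREB drives immediate early genes.
Nr4a1 (chr15:101266596-101266895, plus strand): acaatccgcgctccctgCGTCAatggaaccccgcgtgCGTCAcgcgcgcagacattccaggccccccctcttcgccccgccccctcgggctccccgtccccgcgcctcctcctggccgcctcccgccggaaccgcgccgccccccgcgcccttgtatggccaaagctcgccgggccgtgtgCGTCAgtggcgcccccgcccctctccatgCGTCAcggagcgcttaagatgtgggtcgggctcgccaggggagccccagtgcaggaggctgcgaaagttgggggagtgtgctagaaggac
Nr4a2 (chr2:57123954-57124253, minus strand): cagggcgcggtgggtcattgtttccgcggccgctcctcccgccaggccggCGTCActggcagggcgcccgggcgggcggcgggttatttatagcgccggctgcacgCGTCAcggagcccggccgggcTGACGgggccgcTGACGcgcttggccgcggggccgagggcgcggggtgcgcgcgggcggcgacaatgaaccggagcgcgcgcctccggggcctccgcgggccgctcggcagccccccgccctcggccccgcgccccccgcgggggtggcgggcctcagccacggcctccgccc
Nr4a3 (chr4:48045055-48045354, plus strand): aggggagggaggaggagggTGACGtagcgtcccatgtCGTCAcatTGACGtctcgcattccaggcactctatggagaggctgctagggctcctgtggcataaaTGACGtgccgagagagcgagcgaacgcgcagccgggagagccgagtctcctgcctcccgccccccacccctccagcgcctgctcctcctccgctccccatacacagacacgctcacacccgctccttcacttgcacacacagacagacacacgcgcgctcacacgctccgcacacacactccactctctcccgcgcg
Tox2 (chr2:163202877-163203176, plus strand): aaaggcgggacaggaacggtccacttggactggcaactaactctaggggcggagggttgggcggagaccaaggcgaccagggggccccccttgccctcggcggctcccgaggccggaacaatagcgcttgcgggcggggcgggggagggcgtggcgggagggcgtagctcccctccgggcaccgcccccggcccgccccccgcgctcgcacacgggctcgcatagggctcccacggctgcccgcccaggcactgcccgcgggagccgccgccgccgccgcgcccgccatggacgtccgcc
Each NR4A window held 4 matches, on both strands together and with no overlap between them. Of 32851 promoter windows of this length in the same table, 20.8% held at least 1 match and 1.03% held 3 or more. The full TGACGTCA, present in 1.79% of windows, was in none of the 3, and the Tox2 window shown, the first of the 5 in order of position, had neither. Of the other 4 Tox2 windows, 1 (chr2:163203936-163204235) held a single TGACG match. A match describes letters in a window, and binding was not tested.

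Levels differed widely between the 10 genes. In GRCm38, Tox2 spans chr2:163203125-163324170 on the plus strand, Maf chr8:115682942-115707794 on the minus strand, Id2 chr12:25093799-25097140 on the minus strand and Nr4a2 chr2:57106830-57124003 on the minus strand. Maf shares 5.34% of its exon bases with the antisense gene Gm15655, which had at most 0.997 CPM in a library, and Tox 3.42% with Gm11802, which had no counts. The sources used here do not say whether counting used strand. Levels per kilobase assume that reads cover whole transcripts, which was not checked. Per kilobase of exon, Id2 was the most abundant in CD8 C269 at 778 CPM per kb, followed by Nr4a2 at 186, Nr4a1 at 169.8 and Nr4a3 at 56.2 CPM per kb. Maf, Batf, Tox and Irf4 lay close together, between 20.2 and 26.3 CPM per kb, and Prdm1 (9.30) and Tox2 (3.53) were lowest. Tox2 was at 0.304 CPM per kb in CD8 CTRL. In CD4 C269 Id2 again led at 429 CPM per kb, with Nr4a1 at 229 and Maf at 109.9. Id2 and Nr4a1 were also the most abundant in 4T1 C269, at 203 and 112 CPM per kb, and Batf (5.40), Prdm1 (4.93) and Tox (3.92) the least. These 4T1 C269 levels include libraries 9 and 10. Without them the mean was 773 CPM for Id2, 641 CPM for Nr4a1 and 16.2 CPM for Tox, against 494, 394 and 29.8 CPM with them.

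**Figure D1:**
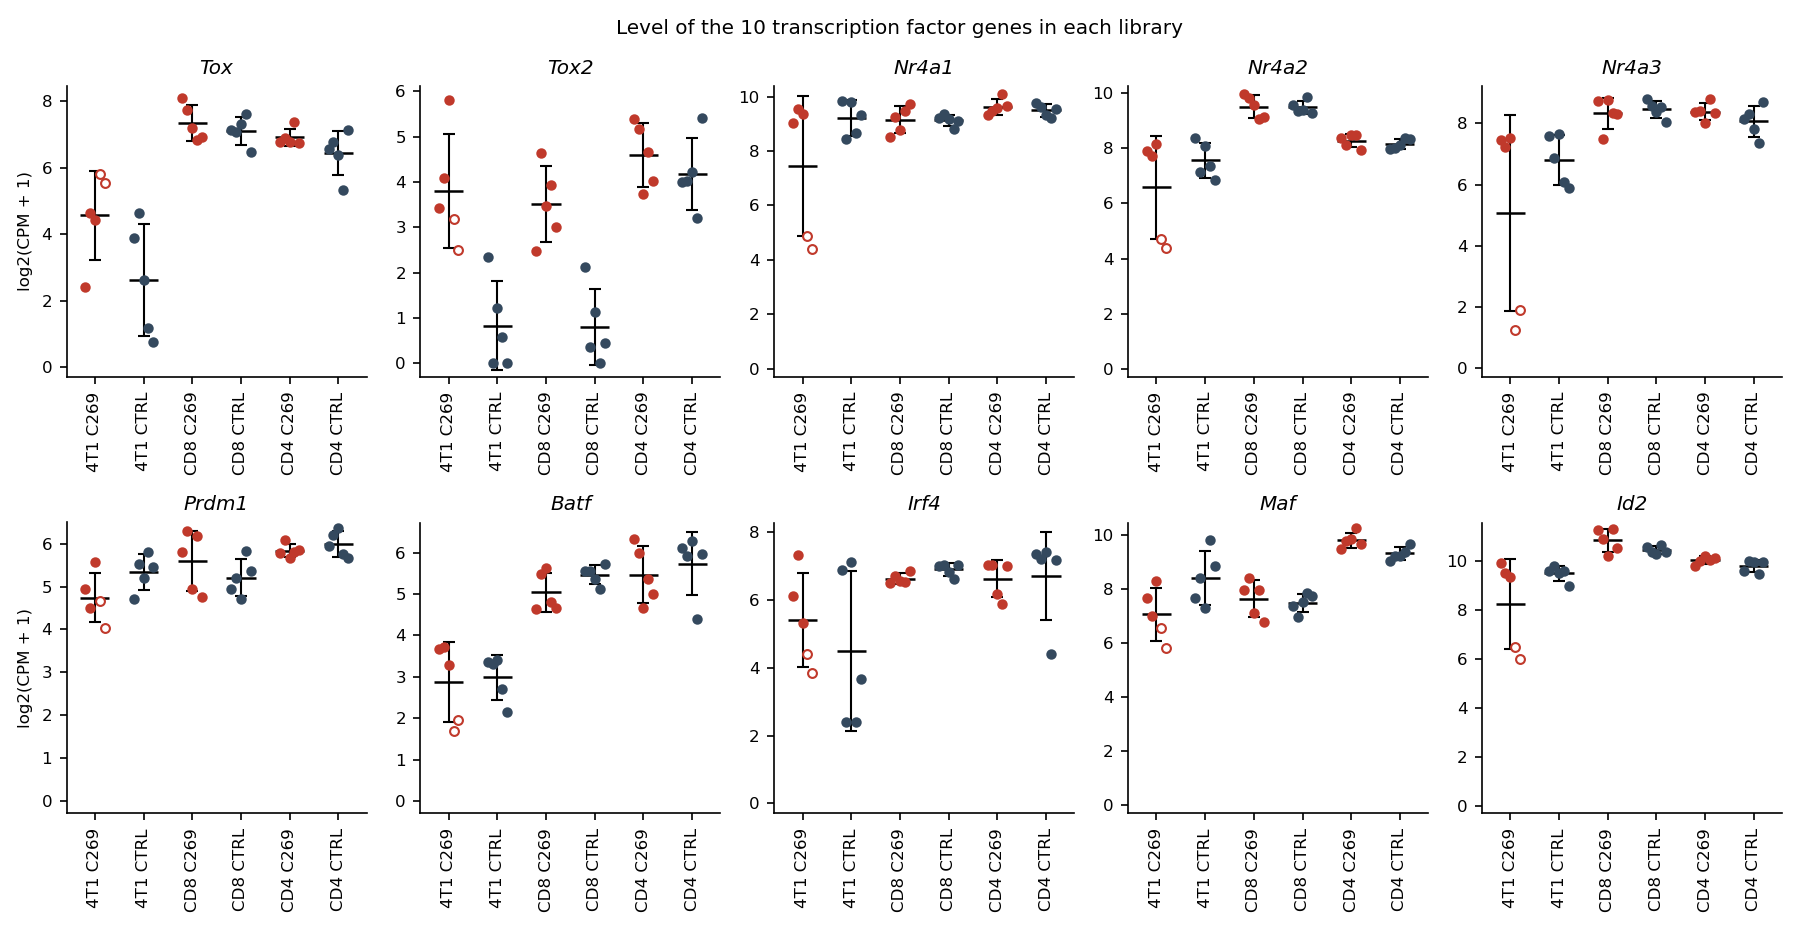
Level of each gene in each library as log2(CPM + 1), with C269 libraries in red and CTRL libraries in dark blue, the mean as a line and the SD as a bar. Open circles are libraries 9 and 10. Tox2 is higher in every CD8 C269 library than in any CD8 CTRL library, Maf is highest in the CD4 groups, and Tox and Batf are low in both 4T1 groups.

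The study asked how C269 alters T cell responses in the tumour. In CD8+ T cells, none of the 10 factor genes passed the test over all genes, where 0.00914% of 10943 genes did (6.63% at an unadjusted p under 0.05). Tox2, a relative of Tox that acts beside it in exhausted CD8+ T cells, had the largest difference of the 10. It was at 4.56, 23.9, 10.1, 14.3 and 7.08 CPM in CD8 C269 libraries 26 to 30, against 3.33, 0.283, 1.198, 0 and 0.358 CPM in CD8 CTRL libraries 21 to 25. The 2 groups did not overlap, as in 0.603% of the genes tested in this direction. Tox2 passed the filter on low counts only through its CD8 C269 libraries. The share and the test are therefore not independent of its higher level there. Its log2 fold change was 3.41, SE 0.88 (unadjusted p = 0.00147, adjusted p = 0.739 by edgeR's quasi-likelihood test), and with each library left out in turn it ran from 3.02 without library 27 to 4.52 without library 21, at adjusted p of 0.298 to 0.988. The counts behind it are small: 12, 48, 33, 29 and 19 in CD8 C269 and 13, 1, 4, 0 and 1 in CD8 CTRL.

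Whether Tox2 was called depended on the test. DESeq2 gave it an adjusted p of 0.0190 and called 0.128% of genes, and edgeR without a filter on low counts gave 0.0464 and called 0.67%. In the edgeR fit of all 30 libraries its adjusted p was 0.241. In the authors' deposited table Tox2 has an adjusted p of 0.0252, among 13 genes listed under 0.05. Some non-T-cell markers were higher in CD8 C269 too, and others were not. The sum of 8 macrophage markers had a median of 236 CPM in CD8 C269 and 582 CPM in CD8 CTRL. That of 6 endothelial markers had medians of 89.6 and 97.9 CPM. All 5 tested of 6 epithelial markers were higher in C269, their sum over 6 being 95.7, 545, 48.03, 253 and 106 CPM in CD8 C269 and 67.8, 35.9, 64.4, 70.8 and 105 CPM in CD8 CTRL. All 5 tested of 6 fibroblast markers were higher as well, with sums of 171 to 7569 CPM in CD8 C269 and 329 to 891 CPM in CD8 CTRL, and no marker of either list was at 0 in all libraries of a group. Libraries 27 and 29, the highest for Tox2, were also the highest for the epithelial sum. The sum of 6 B cell markers was 14.8, 66.3, 101, 82.5 and 50.3 CPM in CD8 C269 and 33.3, 13.9, 21.6, 18.5 and 33.6 CPM in CD8 CTRL, so that libraries 27 to 30 lay above every CTRL library and library 26, the lowest C269 library for Tox2, did not. The sum of 6 NK cell markers was 108, 149, 45.6, 76.1 and 25.4 CPM in CD8 C269 and 37.9, 37.9, 63.2, 67.3 and 23.96 CPM in CD8 CTRL, with Klra8 at 0 in both groups, Klrb1c at 0 in C269 and Ncr1 at 0 in CTRL. Library 27 was also highest for the NK sum and for Cd4 (27.9 CPM, against at most 12.2 CPM in the other CD8 libraries). The part of these cells in the Tox2 difference was not tested.

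Id2, the inhibitor of E proteins, was at 2433, 1886, 1187, 2512 and 1464 CPM in CD8 C269, against 1526, 1321, 1257, 1582 and 1303 CPM in CD8 CTRL. Libraries 26, 27 and 29 lay above every CTRL library, library 30 lay within their range and library 28 below it. The log2 fold change of Id2 was 0.45, SE 0.19 (unadjusted p = 0.0287, adjusted p = 0.741, edgeR). Prdm1, which encodes Blimp-1, followed the same libraries: it was at 54.7, 77.3 and 71.6 CPM in libraries 26, 27 and 29 and at 29.7 and 26.1 CPM in libraries 28 and 30, against 25.2 to 55.8 CPM in CD8 CTRL (log2 fold change 0.48, SE 0.33). Libraries 26, 27 and 29 also had the highest share of ribosomal RNA among the CD8 libraries (6.43%, 7.95% and 7.24%, against at most 5.08% in the others) and the fewest genes detected (15180, 12208 and 13400, against at least 15677). Their part in the values of Id2 and Prdm1 was not tested. Tox, whose product maintains exhausted cells, averaged 173 ± 67.6 CPM in CD8 C269 and 142 ± 39.1 CPM in CD8 CTRL (SD, n = 5 each; log2 fold change 0.28, SE 0.25). The 3 NR4A genes lay close to 0, with log2 fold changes of 0.084 for Nr4a1, 0.065 for Nr4a2 and -0.071 for Nr4a3, and standard errors of 0.18 to 0.22. Batf and Irf4, the partner pair, had log2 fold changes of -0.38, SE 0.27, and -0.27, SE 0.17, and Maf one of 0.25, SE 0.27. Adjusted p was 0.804 or more for the 8 genes other than Tox2 and Id2 (edgeR).

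In CD4+ T cells, none of the 10 passed either, where 0% of 12393 genes did (5.62% at an unadjusted p under 0.05; DESeq2 called 0.11% and none of the 10). Maf, whose product c-Maf drives interleukin-10 in T cells, had the smallest p of the 10. It was at 721, 869.5, 928, 1206 and 801 CPM in CD4 C269 libraries 16 to 20, against 529, 603, 601, 662 and 817 CPM in CD4 CTRL libraries 11 to 15. Of the C269 libraries, 3 lay above every CTRL library, and the other two lay between CTRL libraries 14 and 15. The log2 fold change of Maf was 0.47, SE 0.15 (unadjusted p = 0.00696, adjusted p = 0.743, edgeR), and the adjusted p in the authors' deposited table is 0.358. Markers of regulatory T cells, which also use Maf, moved with it: all 6 were higher in C269, with a summed level of 1484 to 2361 CPM in CD4 C269 and 1026 to 1692 CPM in CD4 CTRL, and none was at 0 in either group. Foxp3, their lineage factor, was at 98.1 to 165 CPM in CD4 C269 and 68.8 to 111 CPM in CD4 CTRL. All 6 epithelial markers were higher in CD4 C269 as well, with sums of 296, 425, 449, 658 and 787 CPM in CD4 C269 and 307, 213, 303, 330.1 and 287 CPM in CD4 CTRL, so that 4 of 5 C269 libraries lay above every CTRL library, and no epithelial marker was at 0 in either group. The part of these cells in the Maf difference was not tested.

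The other members differed less in CD4+ T cells. Tox was at 107 to 165 CPM in CD4 C269 and 39.5 to 139 CPM in CD4 CTRL (log2 fold change 0.36, SE 0.25). Tox2 was at 40.7, 35.1, 12.2, 24.4 and 15.2 CPM in CD4 C269 and 15.02, 15.1, 17.6, 8.25 and 41.6 CPM in CD4 CTRL, so every C269 library lay within the CTRL range (log2 fold change 0.37, SE 0.41). Id2, Nr4a1, Nr4a2 and Nr4a3 had log2 fold changes between 0.11 and 0.24, and Prdm1 one of -0.20. Irf4 was at 129, 129, 72.1, 58.6 and 127 CPM in CD4 C269 and 162, 146, 169, 20.3 and 144 CPM in CD4 CTRL (log2 fold change -0.34, SE 0.41). The low CTRL value is library 14, which also had the least Batf (20.3 CPM) and Tox (39.5 CPM) of the CD4 libraries; its low T cell and high macrophage marker sums were given above. Without library 14 the log2 fold change of Irf4 was -0.62. Within C269, libraries 18 and 19 held 72.1 and 58.6 CPM of Irf4, and the other 3 held 127 to 129 CPM.

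In the 4T1 libraries, the 10 genes were read in a fraction labelled as sorted tumour cells, which held immune transcripts. The 6 epithelial markers summed to 226 to 577 CPM in 4T1 CTRL, 213 to 330 CPM in CD4 CTRL and 35.9 to 105 CPM in CD8 CTRL. They thus did not set 4T1 CTRL apart from CD4 CTRL. The 6 fibroblast markers summed to 3143 to 53426 CPM in 4T1 CTRL and 1037 to 14376 CPM in 4T1 C269. The largest sum of an immune cell type was that of 6 neutrophil markers in all but libraries 8, 9 and 10, at 12578, 8963, 2911, 365 and 369.6 CPM in 4T1 C269 and 13186, 10563, 13538, 6524 and 3753 CPM in 4T1 CTRL. None of the 10 genes passed, where 0% of 12875 genes did (11.9% at an unadjusted p under 0.05). Tox2 again had the smallest p of the 10. It was at 9.71, 15.99, 55.3, 8.08 and 4.64 CPM in 4T1 C269 libraries 6 to 10, against 4.06, 0, 1.34, 0.502 and 0 CPM in 4T1 CTRL libraries 1 to 5. The groups did not overlap, as in 0.924% of genes tested in this direction. Here too Tox2 passed the filter on low counts only because of its C269 libraries. Its log2 fold change was 3.78, SE 1.04 (unadjusted p = 0.00383, adjusted p = 0.355, edgeR), and 4.28, SE 1.01, without libraries 9 and 10 (adjusted p = 0.748), where 5.46% of genes had an unadjusted p under 0.05 and 2.16% did not overlap in this direction. With each library left out it ran from 2.94 without library 8 to 5.02 without library 1. DESeq2 called it with and without libraries 9 and 10, at adjusted p = 0.00525 and 0.00785, where it called 5.64% and 0.807% of genes. The edgeR fit of all 30 libraries called it as well (adjusted p = 0.0120; 4.05% of genes), and the authors' deposited table lists it at 0.00647, among 818 genes under 0.05. Library 8 had more Tox2 (55.3 CPM) than any T cell library. Its T cell marker sum was 547 CPM, against at least 1371 CPM in each CD4 and CD8 library. Its epithelial marker sum was 1599 CPM, against 226 to 577 CPM in 4T1 CTRL. Over all 5 libraries of 4T1 C269 the 6 epithelial markers were each higher than in CTRL, with sums of 5649 and 5442 CPM in libraries 9 and 10. Libraries 6 and 7 had sums of 574 and 364 CPM, within the CTRL range. The sum of 6 plasma cell markers did not overlap between the groups either, at 2454, 2778, 3969, 14959.5 and 13964 CPM in 4T1 C269 and 1936, 153, 1785, 238 and 247 CPM in 4T1 CTRL. All 4 tested plasma cell markers were higher in C269, and Mzb1 and Tnfrsf17 were at 0 in 4T1 CTRL. Library 8 had the highest NK marker sum of all 30 libraries (221 CPM, against 149 CPM in library 27, the next). The part of these cells in the Tox2 difference was not tested.

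Several other members went with libraries 9 and 10. Tox was at 4.29, 23.98, 20.3, 55.2 and 45.2 CPM in 4T1 C269 and 13.9, 23.9, 5.15, 1.25 and 0.693 CPM in 4T1 CTRL, highest in libraries 9 and 10. Its log2 fold change of 1.75, SE 0.87, became 0.92, SE 0.94, without them. Nr4a1 was at 517, 745, 662, 28.1 and 20.3 CPM in 4T1 C269, against 347 to 920.1 CPM in 4T1 CTRL. Id2 was at 952, 727, 640.1, 88.7 and 63.4 CPM in 4T1 C269, against 506 to 876 CPM in 4T1 CTRL. Both genes were within the CTRL range or above it in libraries 6 to 8 and far under it in libraries 9 and 10. The log2 fold changes of Nr4a1 and Id2 were -0.70 and -0.49 with all libraries, and 0.029 and 0.19 without these. Nr4a2 and Nr4a3 turned sign in the same way. They had log2 fold changes of -0.37 and -0.29 with all libraries and 0.30 and 0.45 without them. Prdm1 was at 15.3 to 46.8 CPM in 4T1 C269 and 25.02 to 54.7 CPM in 4T1 CTRL (log2 fold change -0.55, SE 0.31), and Batf at 2.25 to 12.3 CPM in 4T1 C269 and 3.46 to 9.63 CPM in 4T1 CTRL (log2 fold change 0.086, SE 0.58). Without libraries 9 and 10 Prdm1 had a log2 fold change of -0.25, SE 0.29, and Batf one of 0.65, SE 0.51. Neutrophil markers were low in libraries 9 and 10 too, and their part in the values of the NR4A genes and Id2 was not tested. T cell markers stood higher in 4T1 C269 for 9 of 10, and for 10 of 10 without libraries 9 and 10. Their sum was 613, 462, 547, 60.2 and 56.2 CPM in 4T1 C269 and 412, 132, 387, 63.7 and 439 CPM in 4T1 CTRL. Libraries 9 and 10, the highest for Tox, thus had the lowest sums of the 4T1 libraries. The part of T cells in the values of Tox and Tox2 was not tested.

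Maf and Irf4 in the 4T1 libraries went with markers of macrophages and B cells, cells in which these factors are also active. Maf was at 204, 126, 314, 92.3 and 54.9 CPM in 4T1 C269, against 201, 339, 155, 891 and 459 CPM in 4T1 CTRL (log2 fold change -1.33, SE 0.54; unadjusted p = 0.0309, adjusted p = 0.375, edgeR; -0.83, SE 0.49, without libraries 9 and 10). The sum of 8 macrophage markers was 757, 395, 728, 226 and 150.5 CPM in 4T1 C269 and 605, 2015, 591, 4234 and 798 CPM in 4T1 CTRL. Library 4 was highest and libraries 9 and 10 lowest for both, and 7 of the 8 markers were lower in C269. Irf4 was at 69.1, 158, 39.2, 20.2 and 13.5 CPM in 4T1 C269, against 118, 4.26, 139.6, 4.26 and 11.8 CPM in 4T1 CTRL (log2 fold change 0.11, SE 1.03). With libraries 9 and 10 left out, Irf4 came to 0.68, SE 1.10 on the log2 scale. The sum of 6 B cell markers was 214, 1085, 226, 81.3 and 82.7 CPM in 4T1 C269 and 615, 62.2, 611, 11.3 and 12.1 CPM in 4T1 CTRL. Libraries 7, 3 and 1 were the highest for both Irf4 and the B cell sum. Leaving out library 7 gave Irf4 a log2 fold change of -0.65, and leaving out library 3 one of 0.81. No marker of either list was at 0 in all libraries of a 4T1 group, and the part of these cells in the levels of Maf and Irf4 was not tested.

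**Figure D2:**
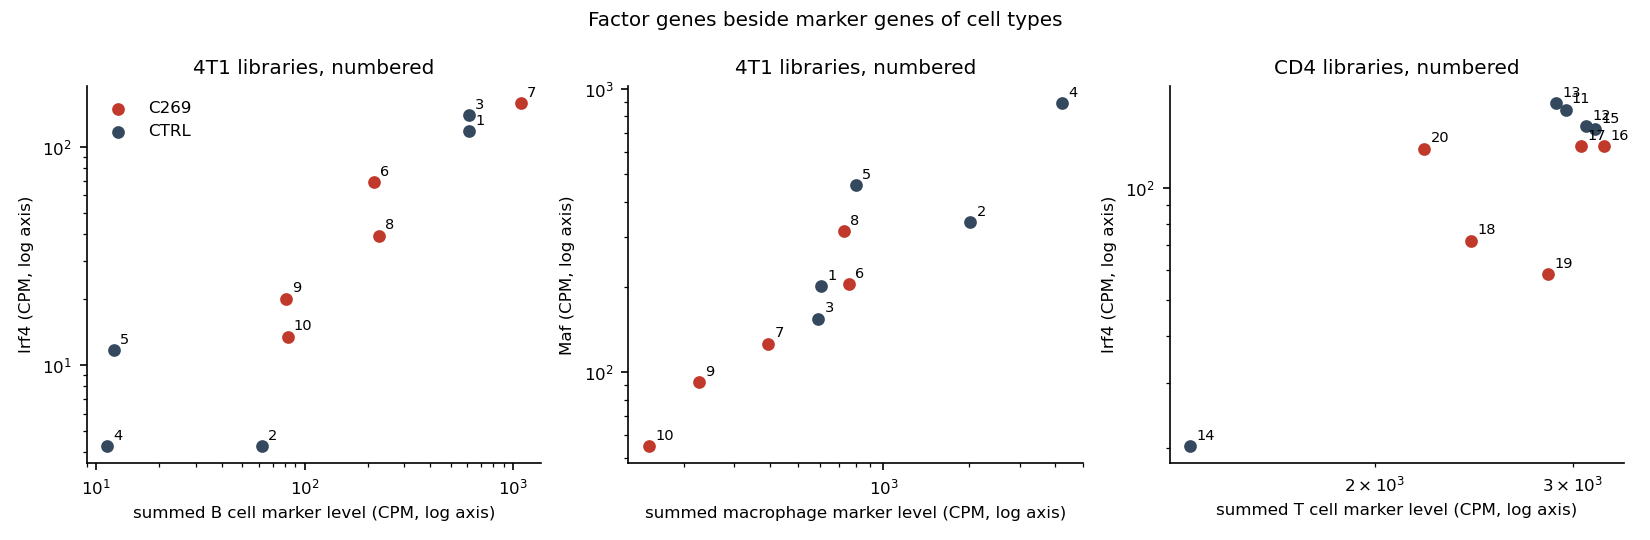
Irf4 against the summed level of 6 B cell markers and Maf against that of 8 macrophage markers in the 10 4T1 libraries, and Irf4 against that of 10 T cell markers in the 10 CD4 libraries, all in CPM on log axes, with library numbers beside the points. Libraries 1, 3 and 7 are high for both Irf4 and the B cell sum, library 4 for Maf and the macrophage sum, and library 14 is lowest for Irf4 and the T cell sum.

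Whether the C269 effect differed between populations was tested as such, in a fit of all 30 libraries. No member passed in any of the 3 tests, in which 0.00679%, 0.00679% and 0% of 14731 genes passed (4T1 minus CD8, 4T1 minus CD4 and CD8 minus CD4). In the last, 3.84% of genes had an unadjusted p under 0.05, and DESeq2 called 0.103%. The effect on Tox2 was larger in CD8 than in CD4 by 3.00 on the log2 scale (SE 1.10, unadjusted p = 0.0103, adjusted p = 1.000, edgeR), so the effects in CD8 and CD4 were not shown to differ. Between 4T1 and CD4 the effect on Tox2 differed by 3.40 (SE 1.07, adjusted p = 0.300, edgeR) and that on Maf by -1.74 (SE 0.53, adjusted p = 0.297, edgeR). Without libraries 9 and 10 the Maf difference was -1.27 (SE 0.48).

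**Figure D3:**
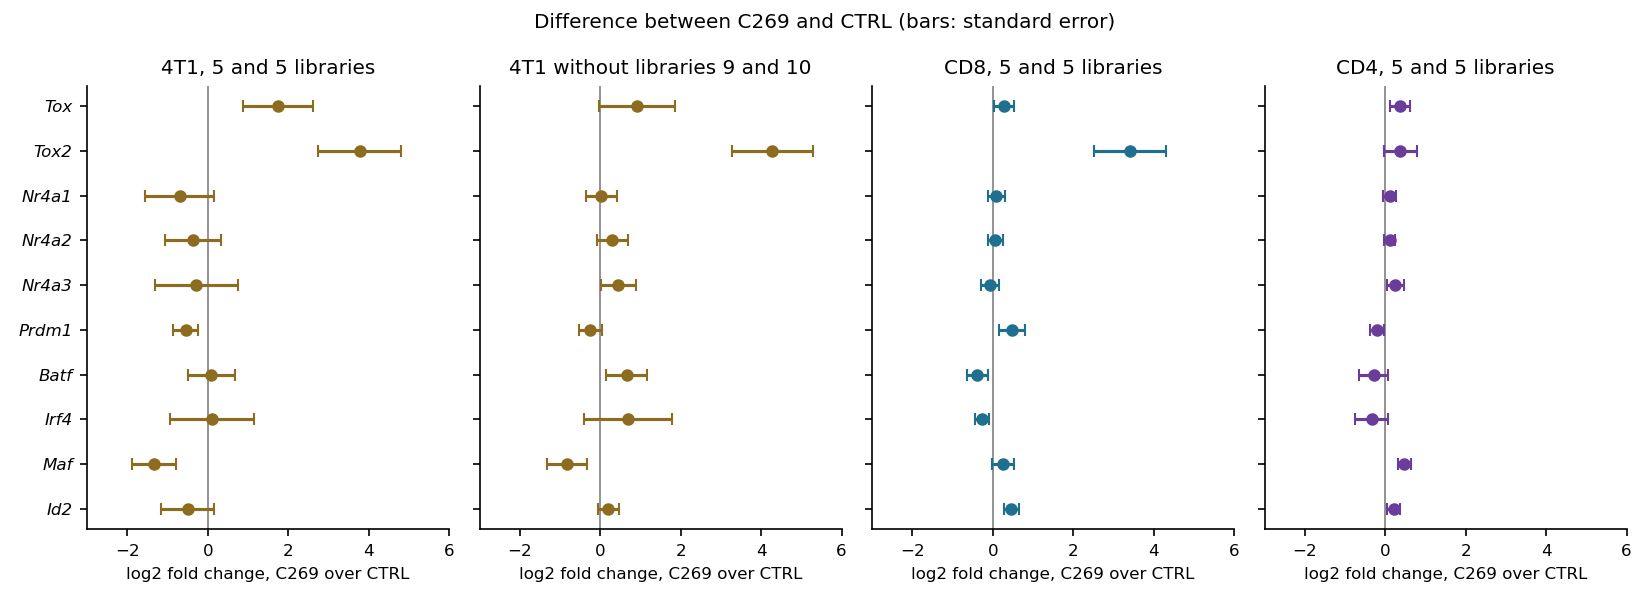
Log2 fold change of each gene, C269 over CTRL, with its standard error, in 4T1 with all 10 libraries, in 4T1 without libraries 9 and 10, in CD8 and in CD4. Tox2 stands at 3.78 in 4T1 and 3.41 in CD8 and at 0.37 in CD4, and the other 9 genes lie within 1 of 0 in both T cell populations.

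The same factors differed between the T cell populations. They were compared in the CTRL libraries and again in the C269 libraries, which share no library. In CTRL, Nr4a2 and Id2 were higher in CD8 than in CD4 cells and Tox2 and Maf lower, so 4 of 10 members passed, where 12.6% of 13201 genes did (3.47% higher and 9.09% lower). Maf was at 163, 124, 182, 229 and 213 CPM in CD8 CTRL, against 529, 603, 601, 662 and 817 CPM in CD4 CTRL (log2 fold change -1.74, SE 0.33; adjusted p = 0.00176, edgeR). Nr4a2, a nuclear receptor induced by T cell receptor signals, was at 761, 650.1, 669, 931 and 616 CPM in CD8 CTRL, against 249, 255, 276, 333 and 325 CPM in CD4 CTRL (log2 fold change 1.42, SE 0.26; adjusted p = 0.00151). Neither gene's groups overlapped, as in 11.6% of genes in the direction of Maf and 5.61% in that of Nr4a2. Id2 averaged 1398 ± 146 CPM in CD8 CTRL and 895 ± 148 CPM in CD4 CTRL (log2 fold change 0.72, SE 0.16; adjusted p = 0.00673, edgeR). Tox2 averaged 1.03 ± 1.36 CPM in CD8 CTRL and 19.5 ± 12.8 CPM in CD4 CTRL (log2 fold change -4.03, SE 0.94; adjusted p = 0.00786, edgeR), with every CD8 library below every CD4 library.

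In the C269 libraries the directions for Maf, Nr4a2 and Id2 held. Maf passed in the fit of the 3 C269 groups (log2 fold change -1.97, SE 0.40; adjusted p = 0.0129, edgeR), where 3.88% of 13235 genes did. Without libraries 9 and 10, which belong to 4T1 and enter this fit only through the shared estimate of spread, Maf (log2 fold change -1.98, SE 0.28), Nr4a2 (log2 fold change 1.35, SE 0.19) and Id2 (log2 fold change 0.94, SE 0.22) passed, with adjusted p of 0.000409, 0.000417 and 0.0133 (edgeR), and 8.93% of genes. For each of these 3 genes no CD8 C269 library overlapped with a CD4 C269 library, as in 9.97% of genes in either direction. Tox2 did not pass in C269: it was at 4.56 to 23.9 CPM in CD8 C269 and 12.2 to 40.7 CPM in CD4 C269, and its groups overlapped (log2 fold change -1.02, SE 0.61; adjusted p = 0.417, edgeR). Tox, Nr4a1, Nr4a3, Batf and Irf4 did not pass between CD8 and CD4 in either treatment, with log2 fold changes between -0.43 and 0.68. Prdm1 was at 25.2 to 55.8 CPM in CD8 CTRL and 50.2 to 82.2 CPM in CD4 CTRL (log2 fold change -0.71, SE 0.23; adjusted p = 0.0554, edgeR). It passed without library 24 (adjusted p = 0.0247) and when the 2 populations were fitted alone (adjusted p = 0.0262), where 23.3% of genes passed. Between 1134 and 1482 genes passed with 1 library left out.

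**Figure D4:**
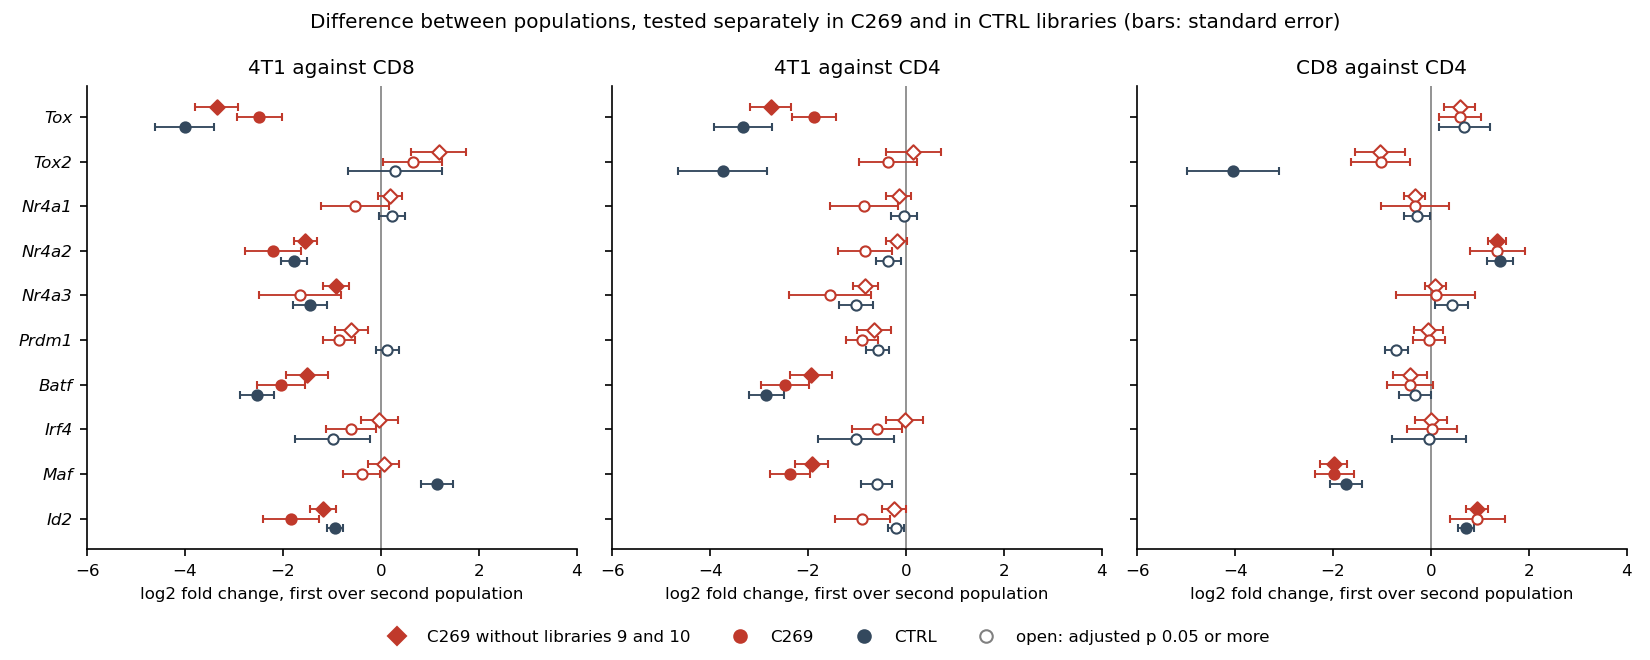
Log2 fold change of each gene between populations, first over second, with its standard error, in the C269 libraries without libraries 9 and 10 (diamonds), in all C269 libraries (red circles) and in CTRL libraries (dark circles). Filled symbols passed the edgeR test at an adjusted p under 0.05. Tox and Batf lie to the left of 0 in all tests of 4T1, and Maf lies between -1.98 and -1.74 in those of CD8 against CD4.

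Compared with the T cells, the 4T1 libraries had less Tox and Batf. Tox was at 0.693 to 23.9 CPM in 4T1 CTRL, against 87.3 to 195 CPM in CD8 CTRL and 39.5 to 139 CPM in CD4 CTRL. Batf was at 3.46 to 9.63 CPM in 4T1 CTRL, against 33.9 to 52.2 CPM in CD8 CTRL and 20.3 to 76.3 CPM in CD4 CTRL. Neither gene overlapped between 4T1 and a T cell population, as in 13.9% of genes against CD8 and 7.58% against CD4 in this direction. Against CD8 in CTRL, 5 members were lower, Tox (log2 fold change -4.01, SE 0.61), Batf (log2 fold change -2.53, SE 0.36), Nr4a2 (log2 fold change -1.77, SE 0.27), Nr4a3 (log2 fold change -1.44, SE 0.35) and Id2 (log2 fold change -0.93, SE 0.16), and Maf was higher (log2 fold change 1.14, SE 0.33; adjusted p = 0.00982, edgeR), where 40.6% of genes passed (17.9% lower and 22.7% higher). Against CD4 in CTRL, Tox (log2 fold change -3.33, SE 0.60), Batf (log2 fold change -2.85, SE 0.36) and Tox2 (log2 fold change -3.75, SE 0.91) passed, all 3 lower, where 12.7% of genes did (5.71% lower). The call of Tox2 ended without library 15 (adjusted p = 0.0558, edgeR). Nr4a3 (log2 fold change -1.02, SE 0.34; adjusted p = 0.0594, edgeR) passed without library 1, 3 or 14, at adjusted p of 0.0247, 0.0167 and 0.0286, and Maf (log2 fold change -0.60, SE 0.32) passed without library 4, at 0.0135. Between 1003 and 1981 genes passed in this comparison with 1 library left out. Nr4a1, an immediate early gene in most cell types, overlapped between all 3 CTRL groups, at 347 to 920.1 CPM in 4T1 CTRL, 452 to 655 CPM in CD8 CTRL and 589 to 875 CPM in CD4 CTRL.

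In the C269 libraries, Tox, Batf, Nr4a2 and Id2 were lower in 4T1 than in CD8, where 21.2% of genes passed (8.92% lower), and Nr4a3 joined them without libraries 9 and 10 (log2 fold change -0.92, SE 0.26; adjusted p = 0.0223, edgeR), where 15.7% did (6.49% lower). Over all tested genes the median log2 fold change of this comparison was 0.13. Against CD4, Tox, Batf and Maf were lower, where 3.17% of genes passed (1.93% lower). These calls were close to the threshold for some genes. Tox against CD4 (adjusted p = 0.0334, edgeR) was lost when library 8 or any CD4 C269 library was left out, and Id2 against CD8 (adjusted p = 0.0327, edgeR) without library 8, 26 or 29. Batf against CD4 was lost without library 16 (adjusted p = 0.0527, edgeR). Against CD8, Irf4 passed as lower without library 7 (adjusted p = 0.0322) and Prdm1 without library 8 or 30 (adjusted p = 0.0385 and 0.0384, edgeR). Between 2205 and 3086 genes passed against CD8 with 1 library left out. Without libraries 9 and 10 the values were -2.76, SE 0.42 (adjusted p = 0.00103, edgeR) for Tox, -1.93, SE 0.34 (adjusted p = 0.00263) for Maf and -1.94, SE 0.43 (adjusted p = 0.0163) for Batf against CD4, where 3.42% of genes passed (1.67% lower), and -1.18, SE 0.26 (adjusted p = 0.00594) for Id2 against CD8. Maf against CD8 had -0.39 with these libraries and 0.058 without them on the log2 scale, and did not pass in either.

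The factors were next set beside Tcf7, the gene of TCF-1, and Pdcd1, the gene of PD-1, across the 10 libraries of each T cell population. In all, 40 relations were computed on log2(CPM + 1) with a pseudocount of 1 CPM, and p-values came from 2-sided permutation tests with 100000 resamples, adjusted over the 40 by the Benjamini-Hochberg method. In CD8, Maf went against Tcf7. Tcf7 was at 215, 63.8, 422, 159.6 and 479.9 CPM in CD8 C269 libraries 26 to 30 and 473, 516, 379, 234 and 299 CPM in CD8 CTRL libraries 21 to 25. Maf was at 247, 340.1, 136, 250.5 and 108 CPM in the same CD8 C269 libraries and 163, 124, 182, 229 and 213 CPM in the CD8 CTRL libraries. The 3 C269 libraries with the least Tcf7 (27, 29 and 26) had the most Maf of the 10, and libraries 22 and 30, with the most Tcf7, had the least Maf (Pearson r = -0.905, permutation p = 6.0e-05, adjusted p = 0.00187; Spearman rho = -0.976, permutation p = 3.0e-05, adjusted p = 0.00120; n = 10). Without libraries 27 and 29, the farthest in Tcf7, r was -0.908, and it was -0.939 for deviations from the group means. Prdm1 also went against Tcf7 (Pearson r = -0.888, permutation p = 1.4e-04, adjusted p = 0.00187; Spearman rho = -0.782, permutation p = 0.0106, adjusted p = 0.0710; n = 10; r = -0.842 without libraries 27 and 29). Macrophage markers, a further source of Maf, summed to 553, 740.4, 231, 194 and 236 CPM in CD8 C269 and 407, 319, 582, 844 and 798 CPM in CD8 CTRL. Of the CD8 C269 libraries, library 27, first in Maf, had the most of them and library 29, second in Maf, the least. Libraries 27, 29 and 26 are also the CD8 libraries with the highest ribosomal RNA share and the fewest genes detected, as given above. The part of either in the relations with Tcf7 was not tested.

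Tox went with Pdcd1 in CD8. Pdcd1 was at 261, 361, 111, 139.8 and 63.02 CPM in CD8 C269 and 131, 73.3, 169, 251 and 72.2 CPM in CD8 CTRL, and Tox at 272, 211, 146, 114 and 120.4 CPM in CD8 C269 and 140.2, 132, 158, 195 and 87.3 CPM in CD8 CTRL. Libraries 26, 27 and 24 were the 3 highest for both genes (Pearson r = 0.835, permutation p = 0.00274, adjusted p = 0.0219; Spearman rho = 0.830, permutation p = 0.00504, adjusted p = 0.0504; n = 10; r = 0.840 without libraries 27 and 30). Maf (r = 0.802, adjusted permutation p = 0.0367) and Nr4a2 (r = 0.779, adjusted permutation p = 0.0484) went with Pdcd1 by Pearson's r, while their Spearman rho of 0.794 and 0.721 had adjusted permutation p of 0.0710 and 0.120. Without libraries 27 and 30 the r of Maf with Pdcd1 was 0.594 and that of Nr4a2 0.696. For Tox2 the relation with Pdcd1 did not pass (r = 0.276, adjusted permutation p = 0.525), nor did that of Nr4a1 (r = -0.496, adjusted permutation p = 0.263).

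In CD4, Maf was the member closest to Pdcd1. Pdcd1 was at 44.4, 35.8, 76.7, 131 and 48.4 CPM in CD4 C269 and 14.8, 26.6, 29.7, 31.8 and 56.8 CPM in CD4 CTRL. Library 19 was highest and library 11 lowest for both genes (Pearson r = 0.941, permutation p = 1.0e-04, adjusted p = 0.00187; Spearman rho = 0.915, permutation p = 4.8e-04, adjusted p = 0.00960; n = 10). Without these libraries r was 0.832, and for deviations from the group means it was 0.907. Tcf7 in CD4 went with Irf4 (Pearson r = 0.830, permutation p = 0.00415, adjusted p = 0.0277; Spearman rho = 0.855, permutation p = 0.00269, adjusted p = 0.0359; n = 10) and, by Pearson's r, with Batf (r = 0.927, adjusted permutation p = 0.00520; rho = 0.624, adjusted permutation p = 0.179). Library 14 was lowest for all 3 genes, with Tcf7 at 48.5 CPM. Without libraries 14 and 20 r was 0.858 for Irf4 and 0.856 for Batf. Libraries 14, 20, 18 and 19 had the lowest T cell marker sums of the CD4 libraries, at 1371, 2214, 2437 and 2853 CPM. The same libraries were the lowest for Tcf7, Irf4 and Batf, and 18 and 19 remain in the reduced r. The part of T cell content in these relations was not tested. The relation of Maf with Tcf7 seen in CD8 had r = -0.292 in CD4 (adjusted permutation p = 0.511), and whether the 2 populations differ in it was not tested. All these points share library depth and cell composition, and the remaining relations had adjusted permutation p of 0.0752 or more.

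**Figure D5:**
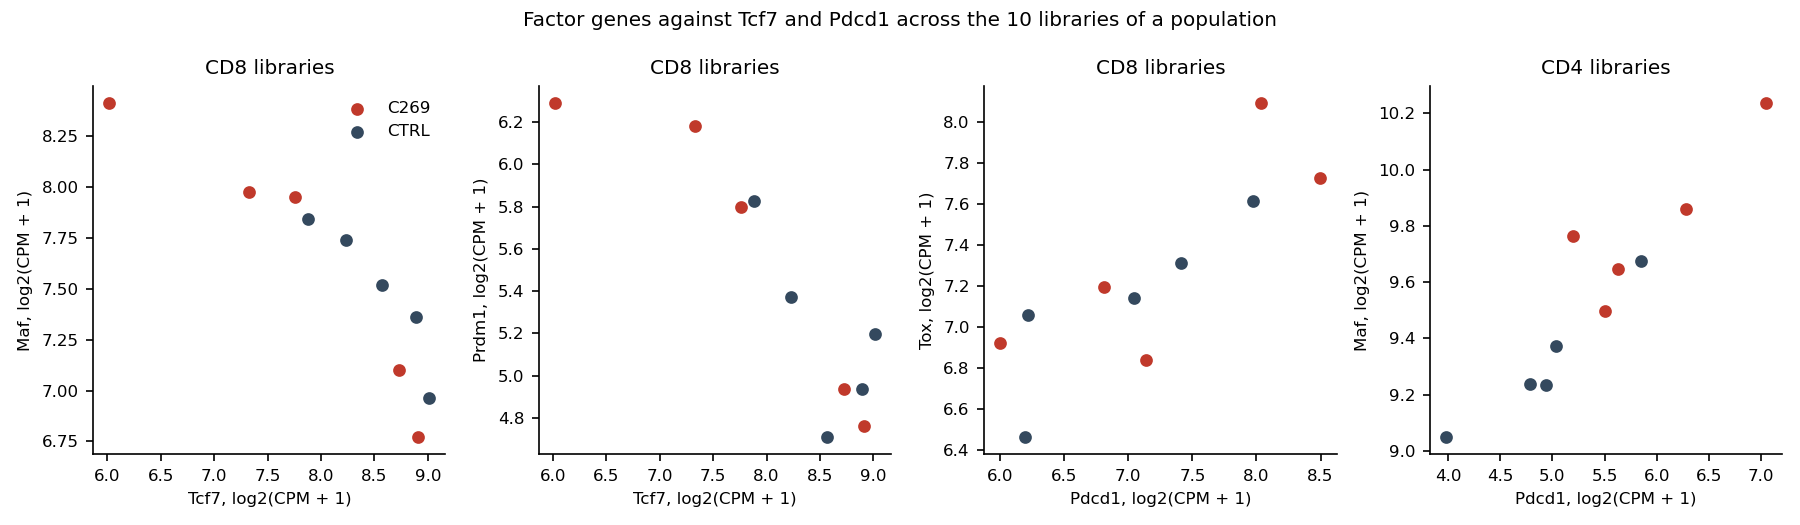
Maf and Prdm1 against Tcf7 and Tox against Pdcd1 in the 10 CD8 libraries, and Maf against Pdcd1 in the 10 CD4 libraries, each as log2(CPM + 1), with C269 libraries in red and CTRL libraries in dark blue. Maf and Prdm1 are lower where Tcf7 is higher (r = -0.905 and -0.888), and Tox and Maf are higher where Pdcd1 is higher (r = 0.835 and 0.941).

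Other genes of the pathway were followed as lists, and none of their members passed in a comparison of C269 with CTRL. The 12 inhibitory receptors and dysfunction markers had 8 of 11 tested members higher in CD8 C269 (median log2 fold change 0.27) and 10 of 10 higher in CD4 C269 (median 0.54). The medians over all tested genes were 0.0097 in CD8 and 0.0047 in CD4. Summed over the 12, CD8 C269 libraries 26, 27 and 29 had 1207, 1560 and 984 CPM. Libraries 28 and 30 had 623 and 463 CPM, and the CD8 CTRL libraries 495 to 1150 CPM. Pdcd1 had the smallest p of the list in CD4 (log2 fold change 1.04, SE 0.35; adjusted p = 0.760, edgeR), followed by Tnfrsf9, the costimulatory receptor 4-1BB (log2 fold change 0.72, SE 0.28). In CD8 it was Cd200, an inhibitory ligand (log2 fold change 1.59, SE 0.37; adjusted p = 0.739, edgeR), followed by its receptor gene Cd200r1 (log2 fold change -1.39, SE 0.92). Of 15 genes of stem-like T cells, 13 of 15 were lower in CD8 C269 (median -0.29) and 12 of 15 in CD4 C269 (median -0.25). Their sum was 3942, 2562 and 4521 CPM in CD8 C269 libraries 26, 27 and 29, and 7362 and 8155 CPM in libraries 28 and 30. In CD8 CTRL it was 4909 to 8541 CPM. Libraries 26, 27 and 29 had the highest ribosomal RNA share of the CD8 libraries, as given above. The part of this in the sums of either list was not tested. Tcf7 itself had log2 fold changes of -0.49, SE 0.40 in CD8 and -0.64, SE 0.39 in CD4. The exceptions included Bcl6, a factor of follicular helper and memory cells, in CD8 (log2 fold change 0.54, SE 0.28) and Il7r, the interleukin-7 receptor, in CD4 (log2 fold change 0.71, SE 0.21; adjusted p = 0.743, edgeR), while Il7r in CD8 stood at the other side of 0 (log2 fold change -0.27, SE 0.17).

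Upstream of the members, NFAT, calcineurin and early activation genes had 8 of 13 tested members higher in CD8 C269 (median 0.12) and 10 of 14 in CD4 C269 (median 0.20). Egr3, an early growth response factor induced through NFAT, had the smallest p of the list in both, with log2 fold changes of 0.66, SE 0.30 in CD8 and 0.55, SE 0.23 in CD4. The AP-1 partners of BATF had 3 of 10 higher in CD8 C269 (median -0.14) and 7 of 12 in CD4 C269 (median 0.073), with Junb, a Jun family member, at a log2 fold change of -0.34, SE 0.18 in CD8 and Batf2 at -0.85, SE 0.48 in CD4. Effector and differentiation factors had 10 of 15 higher in CD8 C269 and 12 of 15 in CD4 C269, with Hif1a, the oxygen-regulated factor, at log2 fold changes of 0.35, SE 0.19 in CD8 and 0.58, SE 0.18 in CD4. Ikzf2, which encodes Helios of regulatory T cells, had 0.51, SE 0.18 in CD4 on the same scale, and Runx1 had 0.41, SE 0.23 in CD8. Among family relatives of the members, Irf1, an interferon-induced relative of Irf4, had log2 fold changes of -0.63, SE 0.28 in CD8 and -0.52, SE 0.20 in CD4 (adjusted p = 0.742 and 0.865, edgeR). Immediate early and heat shock genes, which respond to handling, had 13 of 17 lower in CD8 C269 (median -0.14) and 11 of 17 in CD4 C269 (median -0.062). In 4T1 the same list had 15 of 17 lower in C269 (median -0.75), and 9 of 17 (median -0.062) without libraries 9 and 10. The 3 NR4A genes had log2 fold changes of -0.071 to 0.084 in CD8 and 0.11 to 0.24 in CD4, with standard errors of 0.14 to 0.22. In 4T1 the list and the NR4A genes were both lower in C269 with libraries 9 and 10. The part of handling in the values of the NR4A genes was not tested in any population. Of the other lists in 4T1, the genes with the smallest p were Myb, a stem-like T cell factor also active in epithelial tumours (log2 fold change 2.27, SE 0.62; adjusted p = 0.355, edgeR), and Id1, a relative of Id2 (log2 fold change 2.27, SE 0.74; adjusted p = 0.355, edgeR). Without libraries 9 and 10 these were 1.14, SE 0.53, and 0.24, SE 0.37, on the log2 scale.

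For each member, the genes whose log2 CPM followed it most closely over all 30 libraries were found by the root mean square difference after centring, among 12810 genes. Id2 had the closest followers, Cd53, a leukocyte tetraspanin, at 0.314 and Rab8b at 0.328 on the log2 scale, where the SD of Id2 itself was 1.09. Nr4a2 was followed by Runx3, the factor that sets the CD8 lineage, at 0.402, and Nr4a1 by Ubb and Csrnp1, both early response genes, at 0.464 and 0.471. Nr4a3 was closest to Tnfaip3, the NF-kB inhibitor A20 (0.555), Batf to Stat5b (0.508), Prdm1 to Itm2c (0.386) and Tox to Gimap7, a lymphocyte GTPase (0.630). Irf4 was closest to Aff3 (0.651), Maf to Trps1 (0.588) and Tox2 to Hlf (1.24), the largest difference of the 10 pairs. Such differences depend on a gene's own SD, which was 2.00 for Tox2 and 0.595 for Prdm1. The 30 libraries share differences of population, depth and libraries 9 and 10, so these values are descriptions.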

How the data were processed

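RNA was measured in 30 libraries of 6 groups of 5. The labels' protocols name the Lexogen SPLIT kit, and sequencing on an Illumina instrument. The deposited tables give raw counts per gene for each library, made with featureCounts per the submitters' processing notes, which also name FastQC, DESeq2 and mm9. The aligner is not given in the sources used here, nor are versions or the strand setting. Each table also holds the authors' mean normalized signal, log2 fold change (CTRL over C269, per the file headers), Wald score and p-value with its adjusted p. Library columns were tied to groups through the authors' deposited sums per condition, which in each case only 1 set of 5 columns matched in every row. Replicate letters of the labels could not be tied to columns.

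Counts of 55401 genes were used, without 7 ribosomal RNA rows (3.05% of all counts). Each population gave a comparison of C269 with CTRL. The C269 effect was compared between populations in a fit of all 30 libraries, and the populations within each treatment in a fit of its 3 groups. The test was edgeR 4.0.16 (R 4.3.3) with filterByExpr, TMM, the quasi-likelihood test and Benjamini-Hochberg adjustment over all genes tested, called at 0.05. It was also run on simulated counts. These held changes only in genes above the level of Tox2 in CD8, and no outlying libraries, so that run covers neither case. CPM scale each library's gene counts to the same total, without TMM, and levels per kilobase use the exon bases of GENCODE M21. Fold changes are in log2, the first-named group over the second. Alternatives were DESeq2 1.42.0, its size factors in edgeR, no filter, each library left out, and no libraries 9 and 10. DESeq2 without libraries 9 and 10 and fits of 2 populations alone were added after seeing the data. Relations used scipy 1.17.1. Depth of 2005579 to 5176494 counts limits the precision of low genes such as Tox2.

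The members and lists were chosen with earlier results of these data known. The text names all members, the markers Cd4, Cd8a, Foxp3, Pdcd1 and Tcf7, and genes taken from the 2 of smallest p in each list. For likeness it names the 1 or 2 genes with the smallest root mean square difference. Library numbers are column numbers of the deposited tables. Muc2 was named after its values were seen.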

Additional observations from a re-analysis of the deposited data

Results flagged for a closer look

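In 4 of 60 sets of 5 libraries (10 genes in 6 groups), 1 library lay far from the other 4, by a gap to the nearest library above 0.71 of the whole range. Chance gives about 1 in 20 such sets. Tox in CD4 C269 was at 165 CPM in library 19, where the other 4 held 107 to 118 CPM (gap 0.813 of the range). Tox2 in CD4 CTRL was at 41.6 CPM in library 15, where the other 4 held 8.25 to 17.6 CPM (0.721). Tox2 in 4T1 C269 was at 55.3 CPM in library 8, where the other 4 held 4.64 to 15.99 CPM (0.776). Irf4 in CD4 CTRL was at 20.3 CPM in library 14, where the other 4 held 144 to 169 CPM (0.831). Library 19 was also the highest of the CD4 libraries for Maf (1206 CPM), Pdcd1 (131 CPM) and Nr4a1, and library 14 the lowest for Tcf7 (48.5 CPM). No member showed a difference of the C269 effect between populations that passed.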

How the results depend on the processing

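Across single alternative settings, 573 of 619 member values kept their direction and side of the threshold (92.6%), 3 lost and 16 gained a call and 27 turned sign. With 1 library left out, 1416 of 1500 did (94.4%), 11 lost and 8 gained a call and 65 turned sign. Where a value changed, the cause was not tested, except that settings without libraries use fewer samples.

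Genes called for C269 against CTRL in CD8 numbered 18 by DESeq2, 162 without a filter and 0 in the fit of all 30 libraries, where 1 was called, and members 1, 1 and 0 (Tox2). The shares of genes called were 0.128%, 0.67% and 0%. In CD4 the genes called numbered 17 by DESeq2 and 83 without a filter, and in 4T1 998 by DESeq2, 119 by DESeq2 without libraries 9 and 10 and 596 in the fit of all 30 libraries, with 1 member (Tox2) in each, where none were called. The 4T1 shares of genes called were 5.64%, 0.807% and 4.05%. For the difference in C269 effect the genes called numbered 19 by DESeq2 between CD8 and CD4, 75 by DESeq2, 6 without a filter and 0 without libraries 9 and 10 (edgeR or DESeq2) or in fits of 2 populations alone between 4T1 and CD4, and 617 by DESeq2, 58 without a filter, 45 by DESeq2 without libraries 9 and 10 and 0 in fits of 2 populations between 4T1 and CD8. In CTRL, fits of 2 populations gave 2823 genes for CD8 against CD4 and 1058 for 4T1 against CD4, where DESeq2 gave 2579. In C269, CD8 against CD4 gave 1370 by DESeq2, 1240 and 1981 (edgeR and DESeq2) without libraries 9 and 10 and 904 in the fit of 2 populations, with 3 members in the last 3. Those last 3 settings called 8.93%, 12.7% and 7.66% of genes. For 4T1 against CD4 DESeq2 gave 1381, and 676 without libraries 9 and 10. For 4T1 against CD8 DESeq2 gave 4433, and the fit of 2 populations 1152 (9.61% of 11982 genes) with 2 members. With 1 library left out, genes called for C269 ran from 0 to 1 in CD8 and 0 to 10 in CD4, those for the C269 effect from 0 to 1 between CD8 and CD4, 0 to 12 between 4T1 and CD4 and 1 to 216 between 4T1 and CD8, and those between populations from 1003 to 1981 for 4T1 against CD4 in CTRL, and in C269 from 228 to 635 for CD8 against CD4 and 142 to 668 (1 to 3 members) for 4T1 against CD4. Using all libraries, 4T1 against CD4 in C269 called 3 members and 3.17% of genes.

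Without libraries 9 and 10, the C269 values in 4T1 turned to 0.029 (Nr4a1), 0.30 (Nr4a2), 0.45 (Nr4a3) and 0.19 (Id2) by edgeR and 0.015, 0.29, 0.44 and 0.16 by DESeq2. The 4T1 minus CD4 effects turned to 0.22 (Nr4a2), 0.24 (Nr4a3) and 0.025 (Id2) by edgeR and 0.15 and 0.17 (Nr4a2, Nr4a3) by DESeq2, and the 4T1 minus CD8 effects to 0.0085 (Nr4a1), 0.29 (Nr4a2) and 0.58 (Nr4a3) by edgeR and 0.19 and 0.49 (Nr4a2, Nr4a3) by DESeq2. In C269, 4T1 against CD4 turned to 0.15 by edgeR and 0.20 by DESeq2 for Tox2 and 0.010 by DESeq2 for Irf4, and 4T1 against CD8 to 0.18 and 0.22 for Nr4a1, 0.058 and 0.090 for Maf, and 0.00052 (DESeq2) for Irf4. Cd8a in CD8 turned to 0.0052 with DESeq2's size factors and 0.0039 by DESeq2, Cd3e to -0.028 without a filter and -0.014 in the fit of all 30 libraries, and Irf4 for CD8 against CD4 in C269 to -0.019 without a filter.

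With 1 library left out, these log2 values spanned 0. For C269 in CD8 they ran from -0.091 to 0.21 (Nr4a1), -0.066 to 0.15 (Nr4a2), -0.19 to 0.086 (Nr4a3), -0.063 to 0.070 (Cd3e), -0.16 to 0.97 (Cd4) and -0.18 to 0.10 (Cd8a), in CD4 from -0.21 to 0.090 (Cd4), and in 4T1 from -0.66 to 0.042 (Nr4a3), -0.19 to 0.33 (Batf) and -0.65 to 0.81 (Irf4). For the effect in CD8 minus CD4 they ran from -0.32 to 0.11 (Tox), -0.24 to 0.081 (Nr4a1), -0.20 to 0.033 (Nr4a2), -0.30 to 0.18 (Batf) and -0.15 to 0.33 (Irf4), in 4T1 minus CD4 from -0.31 to 1.18 (Irf4), and in 4T1 minus CD8 from -0.75 to 1.66 (Tox2), -0.52 to 0.17 (Nr4a3) and -0.35 to 1.13 (Irf4). In CTRL they ran from -0.32 to 0.081 for Irf4 (CD8 against CD4), -0.26 to 0.13 for Nr4a1 (4T1 against CD4) and -0.999 to 1.43 for Tox2 (4T1 against CD8). In C269 they ran from -0.027 to 0.26 (Nr4a3), -0.21 to 0.12 (Prdm1) and -0.15 to 0.11 (Irf4) for CD8 against CD4, and from -0.18 to 1.04 for Tox2 (4T1 against CD8).

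The median log2 fold change of all genes in 4T1 against CD4 in C269 was 0.073 by edgeR, 0.14 by edgeR with DESeq2's size factors and 0.21 by DESeq2, which also changes the test and the genes tested. In 4T1 against CD8 in C269 it was 0.13, 0.20 and 0.14. Calls in 4T1 against CD4 in C269 were 163 higher and 256 lower by edgeR, 188 and 237 with DESeq2's size factors and 937 and 444 by DESeq2, and in 4T1 against CD8 1625 and 1181, 1791 and 1037, and 3018 and 1415. No paired analysis was possible because the replicate letters of the labels could not be tied to the columns of the deposited tables.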
